A study of Mus musculus with 16 samples.

Results

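The interaction of Atg7 loss and rapamycin in regulatory T (Treg) cells asks, gene by gene, whether rapamycin changed expression by a different amount when Atg7 was lost. It was computed as the rapamycin effect in Atg7-/- cells minus the rapamycin effect in Atg7+/- cells, on the log2 scale, over all 16 arrays of the series. The same number is the Atg7-/- minus Atg7+/- gap under rapamycin minus that gap in untreated cells. Of 41345 rows of the deposited value table, 23521 carried a single gene symbol and stood for 22180 genes, each represented by its brightest row. Of these genes, 16760 passed a filter on dim values and were tested, and 5420 did not pass.

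The 4 groups held 4 arrays each. Atg7+/- Treg cells came from Atg7+/flFoxp3-Cre mice, which have 1 floxed and 1 intact copy of Atg7. Atg7-/- Treg cells came from Atg7fl/flFoxp3-Cre mice, in which both copies are floxed. All mice were C57BL/6 and carried Foxp3-Cre, so the heterozygous controls also had the Cre and 1 deletable copy, and deletion was driven only where Foxp3 is expressed. In each genotype 1 group was untreated. The other had received 4 mg/kg of rapamycin by intraperitoneal injection every day for 5 days. CD4+Foxp3-YFP+ cells of spleen and peripheral lymph nodes were then sorted and stimulated for 4 h on plates coated with antibodies to CD3 and CD28, in all 4 groups. Whether each replicate was a mouse of its own is not given in the labels. The p-values therefore rest on the spread among these arrays, part of which may be technical.

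Autophagy encloses cell contents in membranes and delivers them to lysosomes, and Atg7 is the E1-like enzyme that its conjugation steps need. Rapamycin inhibits the kinase complex mTORC1, which promotes growth and glycolysis and restrains autophagy. Treg cells are CD4+ T cells that express the transcription factor Foxp3 and restrain immune responses, and an activated fraction of them, effector Treg cells, divides and carries molecules such as granzyme B.

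No gene passed the test of the interaction. With limma and Benjamini-Hochberg adjustment over all genes, 0 of 16760 genes (0%) had an adjusted p under 0.05, and the smallest adjusted p was 0.139, shared by Morrbid, Gzmb, Trappc6a, Nemp1 and Dnah7a. At an unadjusted p under 0.05 there were 1052 genes (6.28%), 482 with an interaction above 0 (2.88%) and 570 below 0 (3.4%). At an unadjusted p under 0.01 there were 255 genes (1.52%), and under 0.001 there were 41 (0.245%), 20 above 0 (0.119%) and 21 below 0 (0.125%). The 12 named genes with the smallest p below 0 were Morrbid, Gzmb, H2ac10, Nuf2, Spsb1, Brip1, E2f8, Havcr2, Stmn1, Crabp2, Clcn3 and Birc5. All 12 were called higher in untreated Atg7-/- cells than in untreated Atg7+/- cells, beside 1.75% of all genes. They were not called between the genotypes under rapamycin. Choosing genes by the interaction favours such gaps, so these calls restate it and do not support it.

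A missed threshold does not show that the responses were equal. The SE of the interaction was 0.165 at the median gene, against 0.117 for a rapamycin effect within 1 genotype, and the median half-width of its 95% interval was 0.347. A single gene would have needed an unadjusted p of 2.98e-06 to be called alone, and the smallest seen was 1.54e-05. Over all genes tested the interaction had a median of 0.0029 and an SD of 0.21, and its 5th and 95th percentiles were -0.35 and 0.32. It was at least 1 in size for 24 genes, 21 of which had an unadjusted p under 0.05. Dropping each array in turn left no gene called, with 1 exception: without rapamycin Atg7-/- replicate 2, Gzmb alone was called (interaction -2.68, adjusted p = 0.0242). Over all 26 alternatives the smallest adjusted p of any gene ran from 0.0242 to 0.341.

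The rapamycin effects themselves were many and, in direction, shared. In Atg7+/- cells 2370 genes (14.1%) changed with rapamycin, 1011 higher and 1359 lower. In Atg7-/- cells 3347 genes (20%) changed, 1480 higher and 1867 lower. These comparisons share no array, but both take the spread of a gene from the same fit to all 16 arrays. Their calls are therefore not independent. In both genotypes 1519 genes changed the same way, 685 higher and 834 lower, which is 64.1% of the genes called in Atg7+/- cells and 45.4% of those called in Atg7-/- cells. No gene was called in both genotypes with opposite directions. Across genes, which are not independent replicates, the 2 effects had a Pearson correlation of 0.75 and a Spearman correlation of 0.68.

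**Figure D1:**
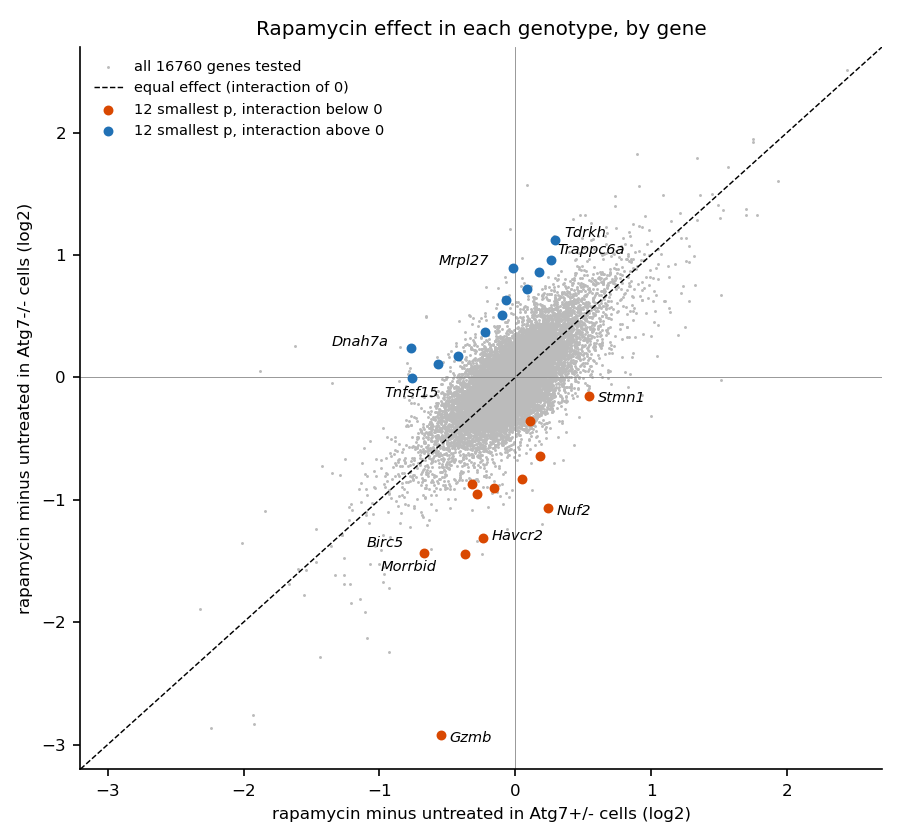
Rapamycin effect (rapamycin minus untreated, log2) of each of the 16760 genes tested in Atg7+/- cells (horizontal axis) and in Atg7-/- cells (vertical axis). Vertical distance from the dashed line is the interaction; the cloud follows the line, Gzmb lies farthest below it among the coloured genes, and none of the coloured genes passed the adjusted threshold.

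Read as a genotype gap, 527 genes (3.14%) differed between Atg7-/- and Atg7+/- cells without rapamycin and 543 (3.24%) with it. These gaps share no array either, but again share the spread of the fit. Among genes called in both, the direction was the same for 173, 81 higher and 92 lower, and opposite for 0. The 173 were 32.8% and 31.9% of the genes called. Across genes the correlation of the gaps was lower than that of the rapamycin effects (Pearson 0.49, Spearman 0.41). The gaps also spread less over genes, with an SD of 0.21 in both treatments. The rapamycin effects had SDs of 0.28 in Atg7+/- and 0.31 in Atg7-/- cells, at the same median SE of 0.117. The part of this in the lower correlation was not tested. The counts of gaps moved when 1 array was left out, which also leaves fewer replicates, and the cause was not tested. Without any 1 of the 4 untreated Atg7+/- arrays, or of untreated Atg7-/- replicates 1 and 4, the count in untreated cells was 282 to 333. The count under rapamycin was 95 without rapamycin Atg7+/- replicate 2, 223 and 255 without replicates 1 and 4 of that group, and 287 and 269 without rapamycin Atg7-/- replicates 3 and 4. The count of rapamycin effects in Atg7+/- cells was 1554 without rapamycin Atg7+/- replicate 2.

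Among the 12 genes with the smallest p and an interaction below 0, 11 were called lower with rapamycin in Atg7-/- cells and 2 in Atg7+/- cells. Over all genes 11.1% and 8.11% were. The interaction is built from the same arrays as these comparisons, so they restate it and do not support it. The sizes ran from 0.47 to 2.38 and the adjusted p from 0.139 to 0.349.

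Gzmb encodes granzyme B, a serine protease of cytotoxic granules that effector Treg cells also make. Its log2 signal was 6.76, 7.23, 7.27 and 7.06 in the untreated Atg7+/- arrays and 6.57, 6.47, 6.66 and 6.45 with rapamycin. In Atg7-/- cells it was 8.92, 8.60, 8.64 and 8.78 untreated and 4.70, 6.72, 6.49 and 5.33 with rapamycin. All 4 untreated Atg7-/- arrays stood above every other array, and the rapamycin Atg7-/- arrays spread over 2 log2 units, on both sides of the rapamycin Atg7+/- arrays. Rapamycin lowered Gzmb 7.59-fold in Atg7-/- cells (log2 -2.92, SE 0.30, adjusted p = 7.41e-06), and the effect in Atg7+/- cells was -0.55 (adjusted p = 0.24). In Atg7+/- cells all rapamycin arrays (6.45 to 6.66) lay below all untreated arrays (6.76 to 7.27). The fit uses 1 spread for the 4 groups, which includes the widely spread rapamycin Atg7-/- arrays. The missed call in Atg7+/- cells therefore does not show that Gzmb was unchanged there. The interaction was -2.38 (95% interval -3.27 to -1.49, unadjusted p = 2.64e-05, adjusted p = 0.139). Leaving out 1 array at a time it stayed between -2.68 and -2.01, with adjusted p from 0.0242 to 0.377.

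Morrbid, a long noncoding RNA known to restrain the death gene Bcl2l11 in short-lived myeloid cells, had the smallest p of all genes. It read 4.07, 4.09, 4.24 and 4.23 in untreated Atg7+/- cells and 4.02, 3.85, 3.57 and 3.69 with rapamycin. In Atg7-/- cells it read 5.14, 5.26, 5.12 and 5.65 untreated and 4.02, 3.69, 4.03 and 3.67 with rapamycin. The untreated Atg7-/- arrays lay above all others without overlap, and the rapamycin arrays of the genotypes overlapped. Morrbid fell 2.72-fold in Atg7-/- cells (adjusted p = 2.86e-06). Its log2 effect in Atg7+/- cells was -0.37 (adjusted p = 0.0624), and there too the rapamycin arrays lay below all untreated arrays. The interaction was -1.07 (95% interval -1.45 to -0.69, unadjusted p = 1.54e-05, adjusted p = 0.139). All Atg7+/- arrays lay between 3.549, the limit of the filter on dim values, and 4.41, the lowest array median. The part of such low signals in the interaction was not tested.

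Havcr2, the inhibitory receptor Tim-3, followed the same order. It read 6.63 to 6.93 in untreated Atg7-/- arrays against 5.32 to 5.79 in untreated Atg7+/- arrays. With rapamycin the Atg7-/- arrays read 4.97, 5.84, 5.94 and 5.27 and the Atg7+/- arrays 5.12 to 5.48, overlapping. It fell by 1.31 on the log2 scale in Atg7-/- cells (adjusted p = 9.51e-05), and its interaction was -1.08 (95% interval -1.60 to -0.55, unadjusted p = 0.000446, adjusted p = 0.349). Themis, a signalling protein of the T cell receptor, was higher by 1.36 in untreated Atg7-/- cells (adjusted p = 0.000706) and its gap under rapamycin was 0.30 (adjusted p = 0.415), an interaction of -1.06 (95% interval -1.60 to -0.52).

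**Figure D2:**
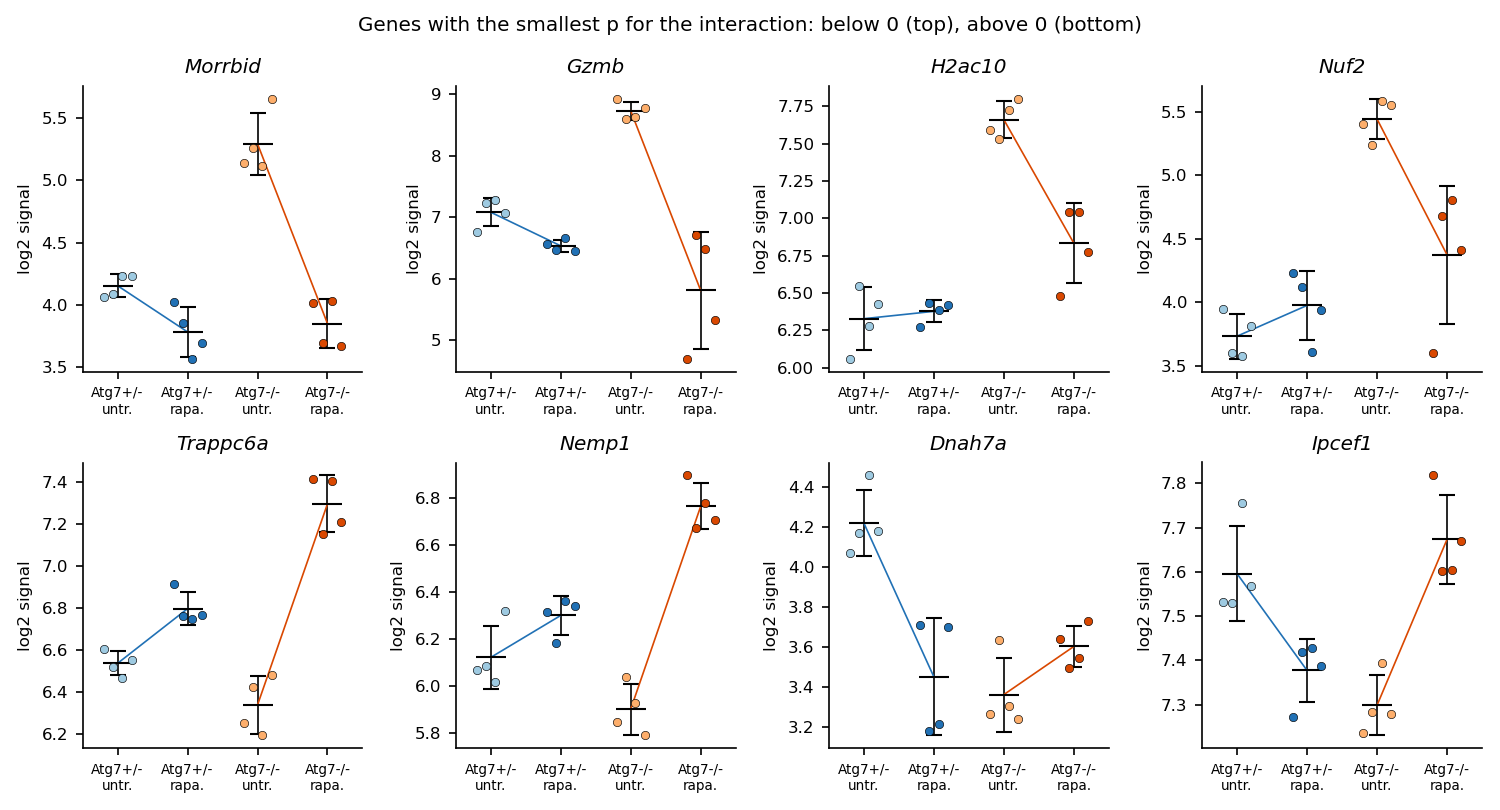
Log2 signal on each of the 4 arrays of a group (points), with the group mean and SD (bars), for the 4 genes with the smallest p below 0 (top) and above 0 (bottom); coloured lines join the means within a genotype. In the top row the untreated Atg7-/- arrays are the highest of all, and in Trappc6a and Nemp1 the rapamycin Atg7-/- arrays are the highest of all.

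Of the list of effector Treg genes, which are those raised in activated Treg cells, 25 of 27 named genes were tested. At an unadjusted p under 0.05, 8 (32%) had an interaction below 0 and 1 (4%) above 0, beside 3.4% and 2.88% of all genes. Of the 25, 19 lay below 0, against 49.3% of all genes. The median interaction was -0.31, beside 0.0029 over all genes, and no member was called. In untreated cells 9 members were higher and 2 lower in Atg7-/- than Atg7+/- (1.75% and 1.39% of all genes were called so), and under rapamycin 2 were higher and 3 lower (1.91% and 1.33%). Rapamycin lowered 18 members in Atg7-/- cells and 12 in Atg7+/- cells, where 11.1% and 8.11% of all genes fell, and raised 0 in either. The count of 8 was 5 without untreated Atg7+/- replicate 1, and the median was -0.20 without rapamycin Atg7-/- replicate 1, whose mean over the list was the lowest of all arrays.

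The mean log2 signal over these 25 genes was 8.24, 8.48, 8.46 and 8.29 in untreated Atg7+/- arrays and 7.94, 7.79, 7.87 and 7.87 with rapamycin. It was 8.68, 8.72, 8.70 and 8.69 in untreated Atg7-/- arrays and 7.40, 7.98, 8.23 and 7.80 with rapamycin. The untreated Atg7-/- arrays were above all others, and the rapamycin arrays of both genotypes overlapped. In bulk samples, fewer cells of a kind and less RNA per cell cannot be told apart. Against the list's direction stood Tbx21, the transcription factor T-bet of type 1 responses. It read 8.0, 7.90, 7.89 and 8.0 untreated and 7.43, 6.73, 7.50 and 6.94 with rapamycin in Atg7+/- cells, where it fell by 0.80 on the log2 scale (adjusted p = 0.00487). In Atg7-/- cells it read 7.63 to 8.23 untreated and 7.80 to 8.43 with rapamycin, which overlap, and its interaction was 0.91 (95% interval 0.41 to 1.41, unadjusted p = 0.00124, adjusted p = 0.435).

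Genes of cell division formed the list with the lowest median. Cells enter mitosis with condensed chromosomes, kinetochores that bind spindle microtubules and checkpoint kinases, and most genes for these parts are switched on late in the cell cycle. Of 47 genes named, 45 were matched and 43 tested. At an unadjusted p under 0.05, 17 (39.5%) had an interaction below 0 and 0 above, beside 3.4% and 2.88% of all genes. Of the 43, 41 (95.3%) lay below 0, against 49.3% of all genes, and the median was -0.41. No member was called. With no filter on dim genes the median was -0.34, and without rapamycin Atg7-/- replicate 1 it was -0.26.

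The genotype gap and the rapamycin effects of the list showed the same arrays from other sides. In untreated cells 18 of 43 were higher in Atg7-/- than Atg7+/- (1.75% of all genes), and under rapamycin 1 was (1.91% of all genes). Rapamycin lowered 18 in Atg7-/- cells (11.1% of all genes), while in Atg7+/- cells it lowered 2 (8.11% of all genes) and raised 2 (6.03%). The mean log2 signal over the list was 4.81 to 4.95 in untreated and 4.85 to 5.01 in rapamycin Atg7+/- arrays. In Atg7-/- arrays it was 5.37, 5.42, 5.45 and 5.51 untreated and 4.71, 5.19, 5.17 and 5.11 with rapamycin. The untreated Atg7-/- arrays were the highest, 3 rapamycin Atg7-/- arrays lay between them and the Atg7+/- arrays, and replicate 1 lay below all Atg7+/- arrays. All these means lay below 5.56, the median signal of all genes tested, and the part of low signals in the list was not tested.

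**Figure D3:**
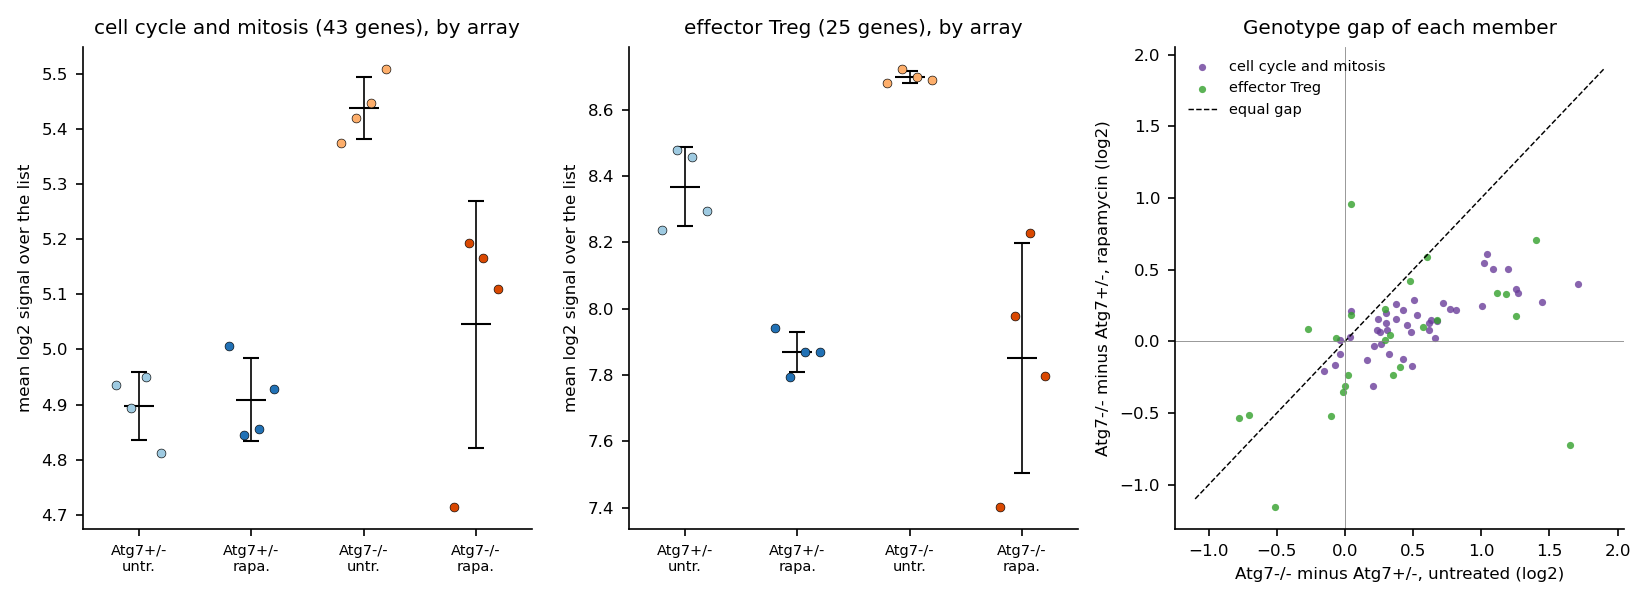
Mean log2 signal of the 43 cell cycle and mitosis genes (left) and the 25 effector Treg genes (middle) on each array, with group mean and SD, and the genotype gap of each member without and with rapamycin (right, log2). Untreated Atg7-/- arrays stand highest in both lists, and rapamycin Atg7-/- replicate 1 is the lowest point in both. Of the 43 cell cycle members 38 have a smaller gap under rapamycin, against 49.4% of all genes.

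Nuf2, a subunit of the Ndc80 complex that ties kinetochores to microtubules, had the smallest p of the list. It read 3.95, 3.60, 3.57 and 3.81 in untreated and 4.23, 4.12, 3.61 and 3.94 in rapamycin Atg7+/- arrays. In Atg7-/- arrays it read 5.40, 5.24, 5.58 and 5.55 untreated and 3.60, 4.68, 4.81 and 4.41 with rapamycin. The untreated Atg7-/- arrays stood clear of all others, and replicate 1 was again the lowest of the rapamycin Atg7-/- arrays, within the Atg7+/- range. All Atg7+/- arrays lay between the dim limit of 3.549 and the lowest array median of 4.41. The part of such low signals in the interaction was not tested. Nuf2 fell 2.1-fold with rapamycin in Atg7-/- cells (adjusted p = 0.00138), its effect in Atg7+/- cells was 0.24 (adjusted p = 0.461), and the interaction was -1.31 (95% interval -1.91 to -0.71, unadjusted p = 0.000222, adjusted p = 0.31).

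Birc5, survivin, a subunit of the chromosomal passenger complex, fell in both genotypes. It read 6.03, 6.18, 6.05 and 6.15 untreated and 5.30, 5.38, 5.22 and 5.82 with rapamycin in Atg7+/- cells, and 7.04, 7.31, 7.21 and 6.88 and 5.47, 5.60, 5.78 and 5.87 in Atg7-/- cells. The groups did not overlap within either genotype, and the rapamycin groups overlapped each other. The log2 effect was -0.67 in Atg7+/- cells (adjusted p = 0.00273) and -1.43 in Atg7-/- cells (adjusted p = 2.91e-06), so the interaction of -0.76 (95% interval -1.14 to -0.38) was a difference in size. Kif4, a mitotic kinesin, had an interaction of -0.54 (95% interval -0.86 to -0.23).

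Mki67, the proliferation marker Ki-67, and Kif11, the kinesin that separates spindle poles, came next by p among members eligible for the promoter display below. They are named after their values were seen. Mki67 averaged 5.98 ± 0.19 and 5.92 ± 0.43 (SD, n = 4) in untreated and rapamycin Atg7+/- arrays, and 7.43 ± 0.18 and 6.19 ± 0.61 in the Atg7-/- arrays. Its interaction was -1.18 (95% interval -1.89 to -0.47), and that of Kif11 was -0.93 (95% interval -1.50 to -0.36). Their log2 effects of rapamycin in Atg7-/- cells were -1.24 (adjusted p = 0.00172) and -0.97 (adjusted p = 0.00193).

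Late cell cycle genes are known to share a promoter element, the cell cycle genes homology region (CHR), often beside CCAAT boxes. Members without a listed promoter, and those on a chromosome left out of this display, were passed over. Of the 5 remaining members with the smallest p, the promoters of 4 are shown to let these elements be seen. They are windows of 300 bases around the listed start (RefSeq, GRCm38.p6, 5′ to 3′ on the gene's strand). Capitals mark TTTGAA (CHR) and CCAAT on either strand. They lie at chr7:135716330-135716629 (Mki67, minus strand), chrX:100625815-100626114 (Kif4, plus strand), chr19:37376132-37376431 (Kif11, plus strand) and chr1:169531415-169531714 (Nuf2, minus strand).
Mki67: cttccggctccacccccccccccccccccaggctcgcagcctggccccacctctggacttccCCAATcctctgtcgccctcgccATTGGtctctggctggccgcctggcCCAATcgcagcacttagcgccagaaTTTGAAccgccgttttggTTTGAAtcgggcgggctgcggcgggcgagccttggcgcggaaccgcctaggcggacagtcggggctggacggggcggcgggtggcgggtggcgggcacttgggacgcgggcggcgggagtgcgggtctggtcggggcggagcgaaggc
Kif4: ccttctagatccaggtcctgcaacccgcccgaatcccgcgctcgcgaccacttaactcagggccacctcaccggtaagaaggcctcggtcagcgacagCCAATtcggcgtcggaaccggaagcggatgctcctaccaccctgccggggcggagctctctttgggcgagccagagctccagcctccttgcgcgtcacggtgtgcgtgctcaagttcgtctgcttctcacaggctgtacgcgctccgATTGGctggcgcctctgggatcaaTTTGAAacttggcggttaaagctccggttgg
Kif11: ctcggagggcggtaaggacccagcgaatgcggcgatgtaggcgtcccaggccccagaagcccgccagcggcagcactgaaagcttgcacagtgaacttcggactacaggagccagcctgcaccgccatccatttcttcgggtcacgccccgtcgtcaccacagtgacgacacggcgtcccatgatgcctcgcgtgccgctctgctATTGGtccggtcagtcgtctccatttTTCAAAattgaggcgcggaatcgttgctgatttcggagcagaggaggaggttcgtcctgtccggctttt
Nuf2: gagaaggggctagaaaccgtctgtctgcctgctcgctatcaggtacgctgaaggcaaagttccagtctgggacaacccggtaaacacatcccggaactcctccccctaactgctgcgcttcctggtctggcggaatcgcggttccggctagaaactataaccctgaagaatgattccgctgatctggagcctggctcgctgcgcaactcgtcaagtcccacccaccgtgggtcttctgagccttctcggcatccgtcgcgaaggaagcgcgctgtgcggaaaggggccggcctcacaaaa

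The Mki67 window held 2 CHR matches and 3 CCAAT boxes, that of Kif4 1 and 2, and that of Kif11 1 and 1. The windows of Nuf2 and Birc5 held 0 of either. Over the 37 members of the list with a promoter in the table, 28 (75.7%) held TTTGAA and 26 (70.3%) CCAAT, against 13.1% and 37.8% of the 12971 tested genes with a promoter. Of the 13 members with an unadjusted p under 0.05 and a promoter, 8 (61.5%) held TTTGAA and 7 (53.9%) CCAAT, so these letters were not more frequent among them than over the list. TTCCCGC, a core of E2F sites, was searched on both strands too. None of the 3 motifs contains another. It was in 1 of 37 (2.7%) and in 7.33% of all. A match is a description of letters and not of binding.

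E2f8, Brip1 and H2ac10 were also among the 12 with the smallest p below 0. E2f8, an atypical E2F repressor, read 4.76 to 5.23 in untreated Atg7-/- arrays and 3.77 to 4.31, 4.09 to 4.38 and 3.95 to 4.17 in rapamycin Atg7-/-, untreated Atg7+/- and rapamycin Atg7+/- arrays. Brip1, a DNA helicase that binds Brca1, read 4.53 to 4.65 against 3.66 to 4.33, 3.56 to 3.98 and 3.70 to 4.12 in the same order. In both genes the untreated Atg7-/- group stood clear and the other 3 overlapped. Those 3 groups lay between the dim limit of 3.549 and the lowest array median of 4.41, and the part of this was not tested. H2ac10, a histone H2A gene whose near-identical copies make its signal uncertain, read 7.53 to 7.80 and 6.48 to 7.04 in untreated and rapamycin Atg7-/- arrays and 6.06 to 6.55 and 6.27 to 6.43 in Atg7+/- arrays, so its rapamycin groups did not overlap.

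Stmn1, which destabilizes microtubules, was the 1 gene of the 12 that rose in Atg7+/- cells. It read 4.0, 3.99, 4.25 and 3.82 untreated and 4.34, 4.45, 4.86 and 4.59 with rapamycin there, a rise of 0.55 (adjusted p = 0.00515). In Atg7-/- arrays it read 4.52 to 4.77 untreated and 4.37 to 4.65 with rapamycin, which overlap. Its interaction was -0.70 (95% interval -1.05 to -0.35). The last of the 12 were Spsb1, an adaptor of ubiquitin ligases (-0.55), Crabp2, a carrier of retinoic acid (-0.67), and Clcn3, a chloride-proton exchanger of endosomes (-0.47). Of 48 DNA replication genes tested, 6 lay below 0 at an unadjusted p under 0.05 (3.4% of all genes) and 0 above. The median was -0.07, and about -0.04 without untreated Atg7+/- replicate 4 or rapamycin Atg7-/- replicates 1 or 2. Cdc45, a subunit of the replicative helicase, had the smallest p (-0.53, 95% interval -0.89 to -0.17).

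Among the 12 genes with the smallest p and an interaction above 0, 8 were called higher with rapamycin in Atg7-/- cells and 0 in Atg7+/- cells. Over all genes 8.83% and 6.03% were. The other 4 were called lower in Atg7+/- cells (8.11% of all genes) and were not called in Atg7-/- cells. In untreated cells 6 were lower in Atg7-/- than Atg7+/- cells (1.39% of all genes), and under rapamycin 5 were higher (1.91%). These counts restate the interaction by which the genes were chosen and do not support it. The interactions of the 12 ran from 0.59 to 1.01.

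Trappc6a, a subunit of the TRAPP complexes that tether vesicles, read 6.61, 6.52, 6.47 and 6.55 in untreated and 6.91, 6.76, 6.75 and 6.77 in rapamycin Atg7+/- arrays. In Atg7-/- arrays it read 6.25, 6.43, 6.20 and 6.48 untreated and 7.42, 7.15, 7.41 and 7.21 with rapamycin. The rapamycin Atg7-/- arrays were the highest and did not overlap any group, while the untreated groups overlapped. Rapamycin raised it by 0.96 on the log2 scale in Atg7-/- cells (adjusted p = 3.98e-06). The effect in Atg7+/- cells was 0.26 (adjusted p = 0.0588), and there too the rapamycin arrays lay above all untreated arrays. The interaction was 0.70 (95% interval 0.43 to 0.96, unadjusted p = 3.16e-05, adjusted p = 0.139).

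Nemp1, a protein of the inner nuclear membrane, showed the same order, with 6.68 to 6.90 in rapamycin Atg7-/- arrays and 5.79 to 6.04, 6.02 to 6.32 and 6.18 to 6.36 in untreated Atg7-/-, untreated Atg7+/- and rapamycin Atg7+/- arrays. Its interaction was 0.69 (95% interval 0.42 to 0.95, unadjusted p = 3.73e-05, adjusted p = 0.139). Lyrm2, a mitochondrial protein of the LYR family, read 8.45 to 8.70 in rapamycin Atg7-/- arrays and at most 8.09 on any other array. Tdrkh, a tudor protein of the piRNA pathway, and Tnnt1, the slow skeletal form of troponin T, had interactions of 0.83 (95% interval 0.45 to 1.20) and 0.61 (95% interval 0.31 to 0.90), and both rose in Atg7-/- cells and were not called in Atg7+/- cells.

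Mrpl27, a protein of the large mitochondrial ribosomal subunit, differed in its starting level. It read 4.14, 4.48, 4.65 and 4.59 in untreated Atg7-/- arrays and 5.15, 5.32, 5.59 and 5.37 with rapamycin, and 4.93 to 5.54 and 5.11 to 5.37 in the Atg7+/- groups. Only the untreated Atg7-/- arrays stood apart, below the others. The interaction was 0.91 (95% interval 0.51 to 1.31), and Scmh1, a Polycomb group protein, had the same order of groups with 0.70 (95% interval 0.34 to 1.05).

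Ipcef1, a partner of cytohesin exchange factors, had effects of opposite sign. It read 7.53, 7.53, 7.76 and 7.57 untreated and 7.27, 7.42, 7.43 and 7.39 with rapamycin in Atg7+/- cells, and 7.24, 7.28, 7.40 and 7.28 and 7.82, 7.60, 7.60 and 7.67 in Atg7-/- cells. The groups did not overlap within a genotype. Its rise of 0.37 in Atg7-/- cells was called (adjusted p = 0.00385), its value of -0.22 in Atg7+/- cells was not (adjusted p = 0.0822), and neither genotype gap was. The interaction was 0.59 (95% interval 0.35 to 0.84, unadjusted p = 7.28e-05, adjusted p = 0.203).

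The 4 genes that fell in Atg7+/- cells were lower in untreated Atg7-/- than untreated Atg7+/- cells. Tnfsf15, the TNF family ligand TL1A, read 5.57, 5.96, 6.21 and 6.29 in untreated Atg7+/- arrays and 5.03 to 5.33, 5.15 to 5.31 and 5.15 to 5.36 in rapamycin Atg7+/-, untreated Atg7-/- and rapamycin Atg7-/- arrays. Dnah7a, an axonemal dynein heavy chain near the dim limit of 3.549, read 4.07 to 4.46 against 3.18 to 3.71, 3.24 to 3.64 and 3.50 to 3.73 in the same order. For both genes only the untreated Atg7+/- arrays stood clear, above the rest. P2ry6, a receptor for extracellular UDP, had an interaction of 0.60 (95% interval 0.30 to 0.90). Naip5, the flagellin sensor whose Naip relatives may share its probes, had 0.68 (95% interval 0.34 to 1.02).

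The Th2 and type 1 cytokine genes had large effects and wide intervals. Il4 read 8.77, 8.35, 8.74 and 9.44 in untreated and 6.86, 7.76, 8.05 and 6.87 in rapamycin Atg7-/- arrays, and 6.11 to 6.45 and 5.76 to 6.49 in the Atg7+/- groups. It fell by 1.44 in Atg7-/- cells (adjusted p = 0.000832), its effect in Atg7+/- cells was -0.24 (adjusted p = 0.573), and the interaction was -1.20 (95% interval -1.95 to -0.45, unadjusted p = 0.00362, adjusted p = 0.609). The gap to Atg7+/- cells was called both without (2.48) and with rapamycin (1.28). Ifng, interferon gamma, fell in both genotypes (log2 effects of -1.92 in Atg7+/- and -2.83 in Atg7-/- cells), and so did Il13 (-2.24 and -2.86). Their interactions were -0.91 (95% interval -2.08 to 0.26) and -0.63 (95% interval -1.52 to 0.27), and both intervals include 0. Ifng was -0.48 and -1.42 without rapamycin Atg7-/- replicates 1 and 3, and Il13 was -0.98 without replicate 3.

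Il5 and Il31, also cytokines of type 2 responses, had interactions below 0. Il5 read 4.59, 5.50, 4.93 and 5.32 and 4.47, 4.43, 3.85 and 3.88 in untreated and rapamycin Atg7+/- arrays, and 6.87, 6.69, 6.21 and 5.77 and 4.18, 3.77, 4.55 and 4.08 in the Atg7-/- arrays. The untreated Atg7-/- arrays were the highest, the rapamycin groups overlapped, and the interaction was -1.31 (95% interval -2.02 to -0.59). Il5 fell in both genotypes. Il31 fell in Atg7-/- cells and was not called in Atg7+/- cells, with an interaction of -0.76 (95% interval -1.22 to -0.30). Over the list of 22 effector cytokine genes 3 lay below 0 and 2 above at an unadjusted p under 0.05, beside 3.4% and 2.88% of all genes. The median was 0.07, and it was -0.25 without rapamycin Atg7-/- replicate 3 and 0.25 without replicate 1.

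The interaction was also described for genes with a rapamycin effect over both genotypes or a genotype gap over both treatments. For this the genes were grouped by the mean rapamycin effect and by the mean genotype gap, which with equal groups are orthogonal to the interaction. The arrays of rapamycin Atg7-/- cells were more spread (root mean square deviation from the group mean 0.16 to 0.24, against 0.14 to 0.16 in untreated Atg7+/- cells), so the independence is not exact, and its part in these values was not tested. For the mean effect 5535 genes (33%) were called, 2320 higher (13.8%) and 3215 lower (19.2%). Of the 2320, 63% had the larger effect in Atg7-/- cells, with medians of 0.33 in Atg7+/- and 0.39 in Atg7-/- cells and a median interaction of 0.06. Of the 3215, 56.8% did, with medians of -0.31 and -0.34 and a median interaction of -0.03, which was 0.02 after each array was centred on its median. With 1 array left out it ran from -0.055 (rapamycin Atg7-/- replicate 3) to -0.0046 (rapamycin Atg7+/- replicate 3), and it also moved by over 1.5 times without untreated Atg7+/- replicates 1 and 4 (-0.020 and -0.019) or rapamycin Atg7+/- replicates 1 and 4 (-0.049 and -0.014). The median of the higher group was 0.09 without rapamycin Atg7-/- replicate 1.

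Klhl24, an adaptor of ubiquitin ligases, rose in both genotypes. It read 7.99 to 8.27 and 9.33 to 9.64 in untreated and rapamycin Atg7+/- arrays, and 6.95 to 7.67 and 8.90 to 9.31 in Atg7-/- arrays. The groups were far apart in both genotypes, and the interaction was 0.46 (95% interval 0.06 to 0.86), with an adjusted p of 0.774. Crebrf, a regulator of the stress factor Creb3, rose by 1.36 and 1.49, with an interaction of 0.13 (95% interval -0.20 to 0.47) that was 0.059, 0.24 and 0.037 without untreated Atg7-/- replicate 4 and rapamycin Atg7-/- replicates 1 and 3. Ssxb8, of a family of near-identical X-linked genes, and Phxr4 had intervals of -0.68 to 0.99 and -1.11 to 0.79.

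S100a4, a calcium-binding protein of effector T cells, fell in both genotypes (log2 effects of -1.43 in Atg7+/- and -2.28 in Atg7-/- cells), with an interaction of -0.85 (95% interval -1.63 to -0.07) that was -0.54 without rapamycin Atg7-/- replicate 1. Hk2, the hexokinase that opens glycolysis, had an interval narrower than that of the median gene. It read 7.92, 7.87, 7.87 and 7.89 and 7.28, 7.22, 7.36 and 7.29 in untreated and rapamycin Atg7+/- arrays, and 8.47, 8.29, 8.29 and 8.44 and 7.51, 7.55, 7.54 and 7.71 in Atg7-/- arrays. No 2 groups overlapped, and the log2 effects were -0.60 (adjusted p = 9.46e-05) and -0.80 (adjusted p = 4.61e-06). The interaction was -0.19 (95% interval -0.42 to 0.03, unadjusted p = 0.0859, adjusted p = 0.798).

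**Figure D4:**
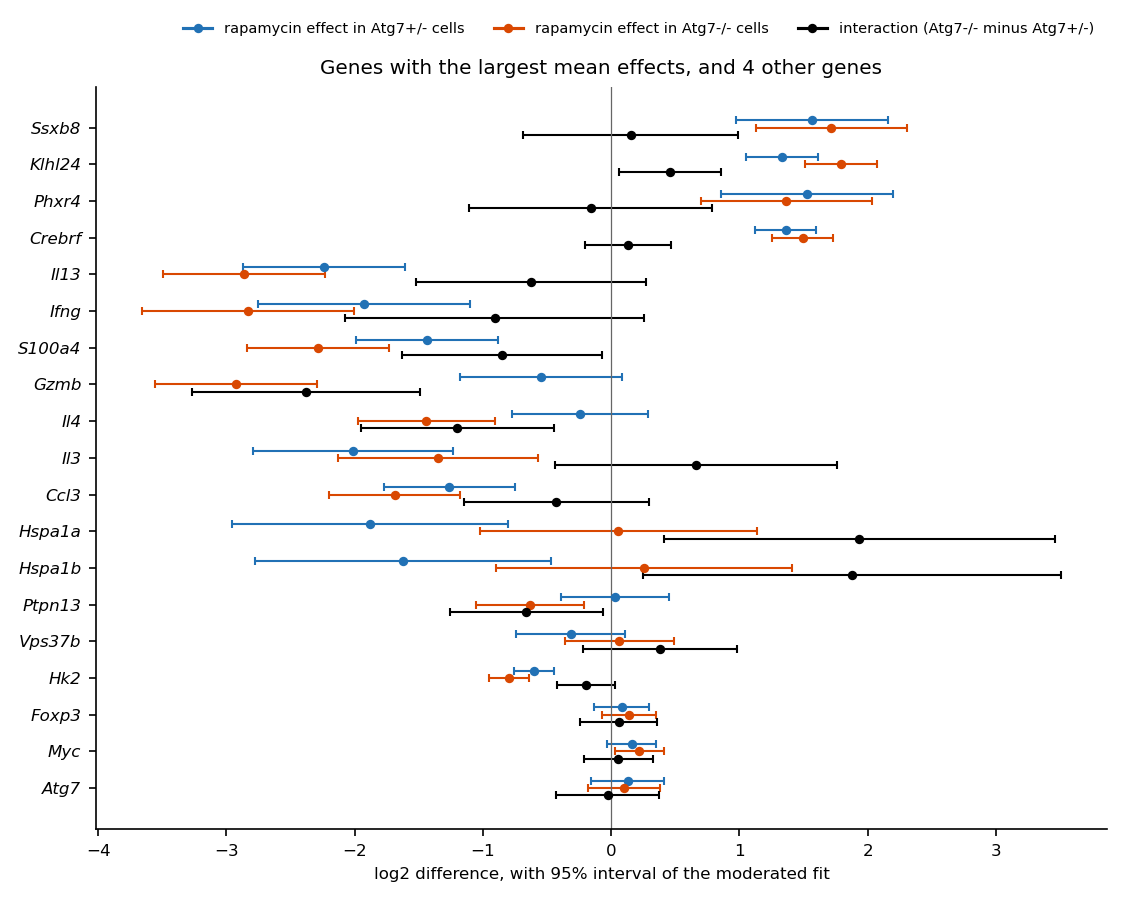
Rapamycin effect in Atg7+/- cells (blue), in Atg7-/- cells (orange) and their difference, the interaction (black), as log2 differences with 95% intervals of the moderated fit, for the genes with the largest mean rapamycin effects and genotype gaps and for Hk2, Foxp3, Myc and Atg7. Gzmb, Il4, Hspa1a, Hspa1b, S100a4, Ptpn13 and Klhl24 have interaction intervals that leave out 0, none with an adjusted p under 0.05, and the intervals of Hspa1a and Hspa1b are the widest.

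For the mean genotype gap 2009 genes (12%) were called, 1257 higher in Atg7-/- cells (7.5%) and 752 lower (4.49%). The gap of the 1257 higher genes had a median of 0.29 untreated and 0.32 with rapamycin, and 56.5% were larger with rapamycin. Of the 752 lower genes the medians were -0.35 and -0.33, and 48.5% were larger. The median interactions of these groups, 0.03 and 0.01, crossed 0 with 1 array left out, between -0.018 (without rapamycin Atg7-/- replicate 3) and 0.08 (rapamycin Atg7+/- replicate 3) for the higher genes, and between -0.039 (rapamycin Atg7-/- replicate 2) and 0.051 (untreated Atg7-/- replicate 2) for the lower. Ccl3, a chemokine, had a gap called in both, with 1.76 untreated (adjusted p = 0.00078) and 1.33 with rapamycin (adjusted p = 0.00896), and Il3 had 1.50 and 2.17. Their interactions were -0.43 (95% interval -1.15 to 0.30) and 0.66 (95% interval -0.44 to 1.76). Ccl3 was -0.25 without untreated Atg7+/- replicate 2 or rapamycin Atg7-/- replicate 2, and Il3 was 0.41, 0.42 and 1.22 without rapamycin Atg7-/- replicates 1, 2 and 4. Of the genes lower in Atg7-/- cells, Vps37b, which sorts cargo at endosomes, had gaps of -1.43 and -1.05 and Ptpn13, a tyrosine phosphatase, -1.10 and -1.76, all 4 called, with interactions of 0.38 (95% interval -0.22 to 0.98) and -0.66 (95% interval -1.26 to -0.06). Vps37b was 0.20 without rapamycin Atg7+/- replicate 1, and 0.59 and 0.23 without rapamycin Atg7-/- replicates 1 and 2. Ptpn13 was -0.42 without rapamycin Atg7-/- replicate 1.

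Hspa1a and Hspa1b, inducible Hsp70 chaperones that share nearly all their sequence and so may share probes, had the largest interactions above 0 among the genes named here. Hspa1a read 8.43, 8.80, 8.69 and 8.39 and 6.80, 6.31, 7.20 and 6.48 in untreated and rapamycin Atg7+/- arrays, and 5.29, 6.48, 5.39 and 6.43 and 4.84, 5.37, 8.27 and 5.33 in Atg7-/- arrays. It fell in Atg7+/- cells (-1.88, adjusted p = 0.0207), and in Atg7-/- cells 1 array, rapamycin replicate 3, stood about 3 log2 units above its group. The interaction was 1.94 (95% interval 0.41 to 3.46, unadjusted p = 0.0159, adjusted p = 0.72), and 1.17 without that array. That of Hspa1b was 1.88 (95% interval 0.25 to 3.51), and 1.04 without that array. Rapamycin Atg7-/- replicate 3 also stood apart on the second principal component of all genes tested (14.6% of variance), at -29.8 against -12.9 to -7.57 for the other arrays of its group.

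Foxp3, the factor that defines Treg cells, and Myc, a driver of growth, had bright signals and narrow intervals. Foxp3 read 11.24 to 11.32, 11.21 to 11.46, 10.53 to 11.04 and 10.84 to 11.07 in untreated and rapamycin Atg7+/- and untreated and rapamycin Atg7-/- arrays. The genotype gap of Foxp3 was -0.40 untreated (adjusted p = 0.0355) and -0.35 with rapamycin (adjusted p = 0.0662). Its interaction was 0.06 (95% interval -0.24 to 0.36), and that of Myc was 0.06 (95% interval -0.21 to 0.33). Atg7 itself read 6.59 to 6.74 and 6.67 to 6.85 in the Atg7+/- groups and 6.05 to 6.62 and 6.02 to 6.73 in the Atg7-/- groups, with overlap between genotypes and an interaction of -0.03 (95% interval -0.43 to 0.37). Where the probes of its row lie relative to the floxed part is not given in the sources used here, so its level checks nothing about the labels.

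Over the 28 lists of pathways and T cell states no member was called, and the list medians ran from -0.41 to 0.20, with 23 within 0.1 of 0. After mitosis and effector Treg genes, the medians farthest from 0 belonged to genes of resting T cells (0.20, 17 genes), interferon-stimulated genes (0.19, 36 genes) and early T cell receptor response genes (0.16, 29 genes). The size of each moved by over 1.5 times with single arrays. The resting T cell median was 0.087 and 0.10 without rapamycin Atg7-/- replicate 2 and rapamycin Atg7+/- replicate 1, and 0.13 without untreated Atg7+/- replicate 1 or untreated Atg7-/- replicate 4. The early response median was 0.081 and 0.089 without rapamycin Atg7+/- replicate 1 and untreated Atg7-/- replicate 4. Of the resting T cell genes 10 rose with rapamycin in Atg7-/- cells and 5 in Atg7+/- cells (8.83% and 6.03% of all genes). Btg1, an inhibitor of proliferation, had the smallest p. It read 8.89 to 9.51 in untreated Atg7-/- arrays, below all others, and 9.66 to 9.76, 9.69 to 9.97 and 9.67 to 9.84 elsewhere, with an interaction of 0.53 (95% interval 0.21 to 0.84).

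Of the early receptor response genes, 4 (13.8%) had an unadjusted p under 0.05, all above 0, where 2.88% of all genes were. Of the 29, 25 lay above 0 and 4 (13.8%) below, against 49.3% of all genes below 0. Rapamycin lowered 7 of them in Atg7+/- cells (8.11% of all genes) and 2 in Atg7-/- cells (11.1% of all genes, a larger share than that of the list). Ier2, an immediate early gene, read 8.66 to 8.95 and 8.11 to 8.76 in untreated and rapamycin Atg7+/- arrays and 8.31 to 8.77 and 8.69 to 8.90 in the Atg7-/- arrays. The groups overlapped within each genotype, and the interaction was 0.63 (95% interval 0.24 to 1.02). Of 36 interferon-stimulated genes 2 (5.56%) had an unadjusted p under 0.05, both above 0. Of all genes 6.28% had such a p, 2.88% above 0. The 2 were the guanosine triphosphatases Irgm1 (0.69, 95% interval 0.22 to 1.16) and Iigp1 (0.74, 95% interval 0.22 to 1.25). The median of this list was 0.39 without rapamycin Atg7-/- replicate 1 and 0.08 without replicate 3. Of 28 chemokine ligand and receptor genes 2 lay above and 2 below 0 at that p (2.88% and 3.40% of all genes), and the median was -0.08. Ccl20, a ligand of the receptor Ccr6, had the smallest p of these. It read 6.87, 7.42, 8.37 and 8.60 in rapamycin Atg7-/- arrays and 6.42 to 7.20 in rapamycin Atg7+/- arrays, which overlap. Its interaction was 1.15 (95% interval 0.35 to 1.95). Those of Ccr4 and Ackr3, next by p, were -0.58 to -0.35 with 1 array left out.

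Genes of mitochondria had list medians slightly above 0. Of 68 mitochondrial ribosomal protein genes 6 (8.82%) had an unadjusted p under 0.05, all above 0. Of all genes 6.28% had such a p, 2.88% above 0. The median of the list was 0.10. It was 0.046 and 0.16 without rapamycin Atg7+/- replicates 2 and 3, and 0.15 without rapamycin Atg7-/- replicate 2. Atg7-/- cells had 4 of them higher than Atg7+/- cells when untreated and 16 under rapamycin, when 1.75% and 1.91% of all genes were higher. Of 50 oxidative phosphorylation genes 3 (6%) had an unadjusted p under 0.05, all above 0, close to the 6.28% of all genes. Their list median was 0.10, and 2 were higher in untreated and 8 in rapamycin Atg7-/- cells. Rapamycin raised 13 of these in Atg7-/- cells (8.83% of all genes) and 2 in Atg7+/- cells (6.03% of all genes, a larger share than that of the list). Mrpl48 (0.37, 95% interval 0.10 to 0.64) and Mrps21 (0.38, 95% interval 0.10 to 0.66) followed Mrpl27 by p. The medians were 0.044 for mitochondrial ribosomal and 0.045 for oxidative phosphorylation genes without rapamycin Atg7-/- replicate 3.

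**Figure D5:**
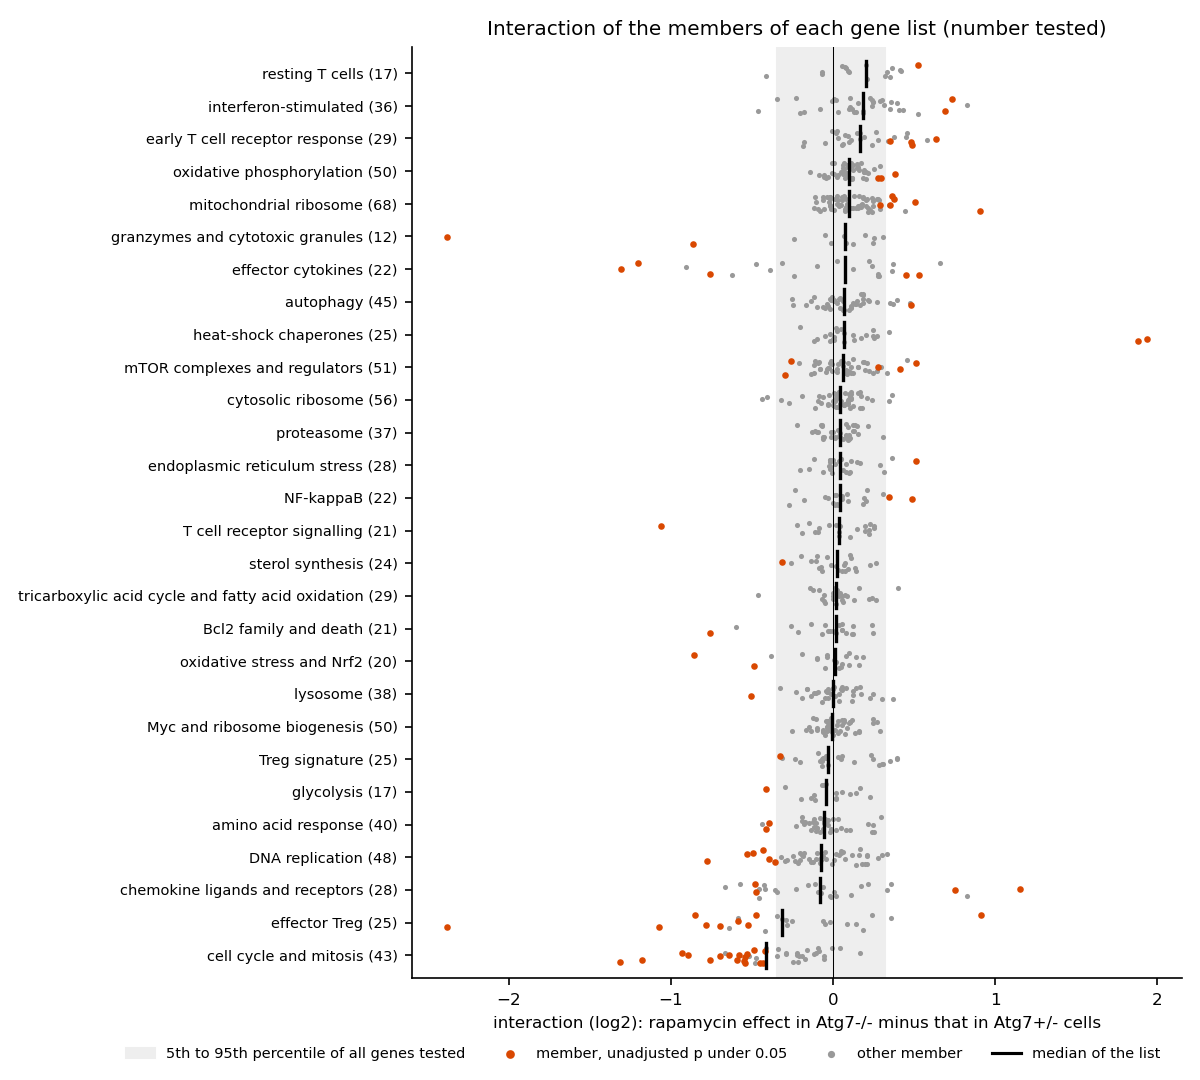
Interaction (log2) of each member of the 28 gene lists, one point per gene, with the list median as a black tick and the grey band from the 5th to the 95th percentile of all genes tested. The points of cell cycle and mitosis sit almost wholly left of 0 (median -0.41), effector Treg next (-0.31), and the medians of 23 lists lie within 0.1 of 0.

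The pathways that rapamycin and Atg7 act on directly showed no member passing. Of 45 autophagy genes 1 (2.22%) had an unadjusted p under 0.05, beside 6.28% of all genes. This was Map1lc3b, the LC3B protein that Atg7 helps to lipidate. It read 7.86, 7.93, 7.85 and 7.96 in untreated and 8.31, 8.56, 8.78 and 8.67 in rapamycin Atg7-/- arrays, without overlap, and 8.14 to 8.55 and 8.29 to 8.80 in the Atg7+/- groups, which overlap. Its interaction was 0.48 (95% interval 0.09 to 0.86). Rapamycin raised 10 and lowered 1 of the autophagy genes in Atg7+/- cells, where 6.03% of all genes rose and 8.11% fell. It raised 16 and lowered 0 in Atg7-/- cells, where 8.83% rose and 11.1% fell. Of 51 genes of mTOR complexes and their regulators, 3 lay above and 2 below 0 at that p (2.88% and 3.4% of all genes). The median was 0.06, and 0.022 to 0.097 with 1 array left out (lowest without rapamycin Atg7-/- replicate 3, highest without untreated Atg7+/- replicate 4), and Pik3cd, a catalytic subunit of phosphoinositide 3-kinase, had the smallest p (0.51, 95% interval 0.07 to 0.96).

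Of 17 glycolysis genes 11 fell in Atg7+/- and 12 in Atg7-/- cells, where 8.11% and 11.1% of all genes fell. Their median interaction was -0.04. It turned above 0 after each array was centred on its median, which moved the interactions of all genes alike, by 0.061. It was also above 0 without rapamycin Atg7+/- replicate 3 or rapamycin Atg7-/- replicate 1 (both 0.01). The 1 member with an unadjusted p under 0.05 (6.28% of all genes) was the lactate carrier Slc16a3 (-0.41, 95% interval -0.75 to -0.08). Of 20 genes of oxidative stress and Nrf2, Srxn1, sulfiredoxin, had the smallest p. It read 6.38 to 6.50 and 5.92 to 6.18 in the Atg7+/- groups and 6.94 to 7.30 and 6.09 to 6.32 in the Atg7-/- groups, and fell in both, with an interaction of -0.49 (95% interval -0.76 to -0.21). Ribosome biogenesis (50 genes), cytosolic ribosomal proteins (56), the tricarboxylic acid cycle with fatty acid oxidation (29) and the proteasome (37) had 0 members with an unadjusted p under 0.05 (6.28% of all genes).

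Markers of the sorted cells and of cells a sort could leave were read on the same arrays. The 6 Treg identity genes tested averaged 10.4 to 10.8 over all arrays. Ctla4, an inhibitory receptor of Treg cells, had an interaction of -0.33 (95% interval -0.63 to -0.03). Markers of 9 other cell types, 72 genes tested of 91 named, gave 1 above and 3 below 0 at an unadjusted p under 0.05 and none called. Of all genes 6.28% had such a p. Those below 0 were Themis, Gzma, a granzyme of cytotoxic cells (-0.86, 95% interval -1.59 to -0.13), and Batf3, a factor of dendritic cells (-0.57). The 1 above 0 was Tnfrsf17, a receptor of plasma cells (0.52). The array means of 8 of the lists lay between 3.89 and 5.75, and those of the conventional T cell markers between 6.99 and 7.75. By group the latter were 7.18 to 7.28 and 6.99 to 7.27 in untreated and rapamycin Atg7+/- arrays and 7.37 to 7.52 and 7.03 to 7.75 in Atg7-/- arrays, so the untreated groups did not overlap and the rapamycin groups did. CD8 T and NK cell markers averaged 4.86 to 5.10 and 4.62 to 4.75 in untreated and rapamycin Atg7+/- arrays and 5.14 to 5.28 and 4.86 to 5.0 in Atg7-/- arrays, and Cd8a read 4.33 to 5.10 over all arrays. The part of such cells in the values of Gzmb, the cytokines or the lists was not tested.

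Classes of genes set apart by symbol were counted too. Of 286 olfactory and vomeronasal receptor genes tested, 8.74% had an unadjusted p under 0.05, and of 262 microRNA genes 6.87%, with a median of -0.13. Among all genes tested 6.28% had such a p. Of 83 small nucleolar and other small RNA genes 14.5% did, 3 above and 9 below 0, with a median of -0.24. None was called. Taking all 30582 rows that passed the filter, with or without a gene name, called 0 and gave a smallest adjusted p of 0.247.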

How the data were processed

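RNA of sorted Treg cells was measured on 1-colour expression arrays, 4 per group. The authors' deposited values are log2 signals normalized by RMA in Partek 6.6, per the submitters' processing notes; neither the order and settings of these steps nor the genome build and probe annotation is stated there. The log base is not written in the table and was taken as 2 from the method. Array medians ran from 4.41 to 4.63, and array pairs correlated at 0.973 to 0.994. Arrays carry no counts, so their number limits the precision.

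Rows with 1 gene symbol were kept (1814 had several and 16010 had none), symbols were updated through RefSeq tables (23328 rows matched), and the brightest row stood for each gene. Genes whose highest group mean exceeded 3.549, the 30th percentile of all values, were tested with limma 3.58.1 (R 4.3.3), 1 mean per group, two-sided, with Benjamini-Hochberg adjustment over 16760 genes and calls at an adjusted p under 0.05. The fit was tested on simulated data. The members, gene lists and named genes were chosen with earlier results of these data known. Named were 8 fixed genes, the 12 smallest p in each direction, up to 3 members per list, and the genes with the largest mean effects, without predicted genes, receptors, antigen receptor segments and microRNAs.

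Replicate numbers did not meet the rule for pairing, a correlation over 0.1 in every pair: deviations of same-numbered arrays correlated at -0.08 to 0.36 (median 0.02), over 0.1 in 6 of 24 pairs. Between the rapamycin groups the 4 values were 0.24, 0.19, 0.36 and -0.07. Alternatives were other filters, row rules, normalizations and variance models, a block and leaving out each array. Promoters came from RefSeq (GRCm38.p6).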

Additional observations from a re-analysis of the deposited data

Results flagged for a closer look

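The 4 groups of 42 genes (the fixed genes, the 12 smallest p in each direction and the genes with the largest mean effects) and of the mean levels of the cell cycle and effector Treg lists were examined, 176 in all. Genes named only as list members were not. In 10 of these, 1 array lay far from the other 3 by Dixon's criterion, which chance alone gives for about 1 group in 20. In rapamycin Atg7-/- replicate 3, Hspa1a read 8.27 against 4.84 to 5.37 on the other arrays of its group, and Hspa1b 9.39 against 5.72 to 6.31. On the same array Lyrm2 read 8.70 against 8.45 to 8.47.

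In rapamycin Atg7+/- replicate 1, Trappc6a read 6.91 against 6.75 to 6.77, and Tnfsf15 read 5.03 against 5.30 to 5.33. In untreated Atg7+/- cells, replicate 2 was low for Ccl3 (6.66 against 7.33 to 7.41) and high for Foxp3 (11.32 against 11.24), and replicate 1 was low for Il4 (6.11 against 6.39 to 6.45). In untreated Atg7-/- cells, Dnah7a read 3.64 in replicate 2 against 3.24 to 3.30, and Myc read 10.74 in replicate 4 against 11.08 to 11.12.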

How the results depend on the processing

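The interaction had 0 genes called in 25 of 26 alternatives and 1 in the other, so the range over arrays left out was 0 to 1. With the replicate block 0 were called (smallest adjusted p 0.184), with array weights 0 (0.0527), with quantile normalization 0 (0.206), with the filter at the median 0 (0.111) and with the mean of a gene's rows 0 (0.166). Leaving out 1 array moved the count of rapamycin effects in Atg7+/- cells between 1554 and 2785. It moved the genotype gap in untreated cells between 282 and 695 genes and that under rapamycin between 95 and 790. The gap in untreated cells counted 318 genes after centring each array and 974 with array weights. The gap under rapamycin counted 820 with the filter at the median, 350 after centring and 886 with trended, robust variances. The cause of these shifts was not tested.

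The effector Treg count of 8 was 5 after centring and 5 to 12 with 1 array left out, and the cell cycle median ran from -0.43 to -0.26. Centring moved every interaction by 0.061 and changed the sign of 4 list medians (Treg signature, glycolysis, ribosome biogenesis, amino acid response). Atg7 turned to 0.033 after centring and ran from -0.14 to 0.13 with 1 array left out; Psma5, a proteasome subunit, turned to -0.017 with the mean of its rows. Other interactions that changed sign with 1 array left out were Foxp3 (-0.049 to 0.12), Myc (-0.032 to 0.10), Ssxb8 (-0.16 to 0.31), Phxr4 (-0.38 to 0.18) and Slc4a1 (-0.025 to 0.21).

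The interaction's SE is larger than that of a single effect, so differences under about 0.35 on the log2 scale were within the interval of the median gene. Rows without a single symbol and dim genes were tested only in the alternatives over all rows and without the filter. Signals of near-identical genes cannot be told apart.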
